A study of Mus musculus with 4 samples.

Results

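Interferon-responding effector T cells were T cells from tumors grown under the skin of mice from a renal tumor line, and they carried transcripts of 2 antiviral interferon-stimulated genes, Ifit1 and Ifit3, together with many transcripts of Ccl5, the chemokine that effector and memory T cells store. They were selected on measured values. Droplet barcodes with 200 to 3000 detected genes and at most 5% mitochondrial transcripts were kept, and a cell counted as a member when it held at least 1 unique molecular identifier (UMI, 1 captured transcript) of Cd3d, Cd3e and Cd3g together, at least 1 of Ifit1, at least 1 of Ifit3 and at least 20 of Ccl5. This gave 392 members among 21570 CD3-positive cells within those limits and 38860 called cells in all. The cells set beside them were the 3987 reference cells, which had at least 20 Ccl5 UMIs and no UMI of Ifit1 or Ifit3. A further 626 Ccl5-high cells held UMIs of only 1 of these genes and belonged to neither set.

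The tumors were grown under the skin of 6-week-old male C57BL/6J mice by implanting 105K, a Tsc2-deficient mouse renal tumor line in which mTORC1 is therefore overactive. The implanted cells expressed a short hairpin RNA that was either non-targeting (sh-NC, the control group, n = 2 libraries) or directed at the checkpoint molecule B7-H3, encoded by Cd276 (sh-B7-H3 (1), the knockdown group, n = 2 libraries), and both were transduced pools, not single clones. In each group 80 tumors were pooled, live CD3+ cells were isolated on a cell sorter and labeled with DNA-barcoded antibodies (tags), and RNA and tags were read from the same droplets (CITE-seq). The labels describe the libraries of a group as duplicate lanes of 1 pool and the study's own text describes them as independent samples, so every p-value here measures only the spread between these 2 libraries, which may be technical. The hairpins were in the tumor cells, not in the T cells, and Cd276 had 9 to 11 UMIs in the called cells of each library, too few to check the labels.

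Interferons are secreted proteins that signal through paired receptors (Ifnar1 and Ifnar2 for type I, Ifngr1 and Ifngr2 for interferon gamma) and the kinases Jak1, Jak2 and Tyk2 to transcription factors in the nucleus. Type I interferon forms a complex that contains Stat2 and Irf9 and binds the interferon-stimulated response element in the promoters of antiviral genes, whereas interferon gamma acts mainly without that complex and induces the guanylate-binding and immunity-related GTPases. Many genes answer to both. In tumors, a small set of T cells with a strong interferon-stimulated program is a familiar finding in single-cell data, among naive-like as well as effector cells.

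Values of the 4 libraries are given in the order control 1, control 2, knockdown 1 and knockdown 2. The libraries held 12112, 10589, 7030 and 9129 called cells, with 79224898 to 132820909 RNA UMIs, and shared 17 to 35 cell barcodes pairwise (0.242 to 0.427% of the smaller library). Members numbered 85, 73, 104 and 130, with medians of 6039 to 6656 RNA UMIs per cell against 6351 to 6500 in the reference cells. Their median share of mitochondrial UMIs was 2.19, 2.19, 2.76 and 2.78%. Near-empty droplets with at most 100 UMIs, which report free RNA, held Ifit1 at 35.8 to 46.6 CPM (UMIs scaled to a total of 1000000), Ifit3 at 24.4 to 32.1 CPM and Ccl5 at 1212 to 4741 CPM, the last one highest in the knockdown libraries. A simulated-doublet score marked 38.8, 32.9, 30.8 and 41.5% of members, against 18.8, 17.6, 18.1 and 31.9% of reference cells, and its part in the results was not tested beyond the counts given without those cells. No batch or date was given, so the knockdown cannot be told apart from any difference in how the tumors of each group were handled.

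Members made up a larger share of T cells in both knockdown libraries than in both control libraries. They were 1.13% (95% exact binomial interval 0.905 to 1.40), 1.18% (0.924 to 1.48), 3.09% (2.53 to 3.73) and 2.90% (2.42 to 3.43) of CD3-positive cells, the intervals covering counting error only. The group means were 2.99% ± 0.136 and 1.15% ± 0.0319 (SD, n = 2 libraries each; knockdown, then control), a ratio of 2.59. The 2-sided exact permutation p was 0.33, the smallest value that 2 libraries against 2 allow, so no comparison of library shares here can pass 0.05. Over 14 settings, the main one included, the ratio ranged from 1.76 to 2.95. Among them were the removal of simulated-doublet calls, mixed-lineage cells or cells with myeloid UMIs, and cells thinned to equal depth.

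Split into its criteria, the share moved with Ccl5 and in the other direction with Ifit1 and Ifit3. Ccl5-high cells were 9.68, 12, 44.9 and 45.0% of CD3-positive cells, 4.15 times as large a share in the knockdown as in the control group. Among these Ccl5-high cells, members were 11.7% (9.45 to 14.3), 9.81% (7.77 to 12.2), 6.88% (5.65 to 8.27) and 6.43% (5.40 to 7.59), so both knockdown libraries lay below both control libraries (means 6.65% ± 0.318 against 10.8% ± 1.33, ratio 0.619, exact permutation p = 0.33). Cells with UMIs of both Ifit1 and Ifit3, whatever their Ccl5, were 5.21, 5.29, 4.33 and 4.23% of CD3-positive cells, and members formed 21.7, 22.3, 71.2 and 68.4% of them. T cells with both Ifit transcripts were thus mostly Ccl5-high in the knockdown libraries and mostly not in the control libraries.

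**Figure D1:**
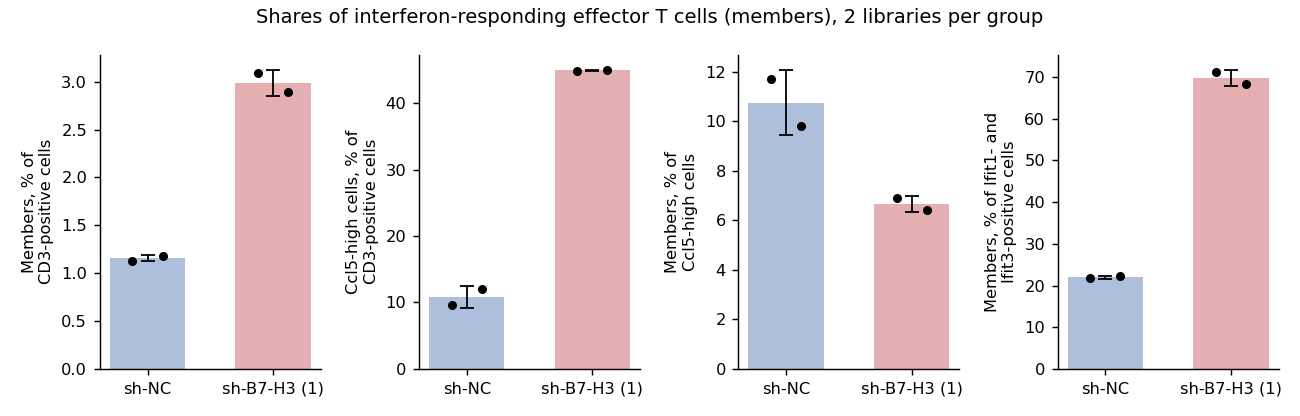
Shares in percent (y axes) of members among CD3-positive cells, of Ccl5-high cells among CD3-positive cells, of members among Ccl5-high cells, and of members among cells with UMIs of both Ifit1 and Ifit3, for sh-NC and sh-B7-H3 (1). Bars are means, error bars the SD and points the 2 libraries of a group; the knockdown points lie above the control points in the first, second and last panels (2.99 against 1.15% for members of CD3-positive cells) and below them in the third (6.65 against 10.8%).

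Also set beside the members were 585 interferon-responding T cells with at most 2 Ccl5 UMIs and the same Ifit1 and Ifit3 criteria. They were 3.85, 3.82, 0.683 and 0.802% of CD3-positive cells, lower in both knockdown than in both control libraries (ratio 0.194, exact permutation p = 0.33), where members were higher. Their median Ccl5 was 0, 0, 1 and 1 UMI. Near-empty droplets held the most Ccl5 in the knockdown libraries, and the part of this free RNA in the cut at 2 UMIs was not tested. The log2 ratio of the member share to this share was -1.77, -1.70, 2.18 and 1.85, a difference of 3.75 between the groups (exact permutation of the group labels, p = 0.33). This ratio carries the larger share of Ccl5-high cells with knockdown, since Ccl5 separates the 2 kinds of cells. Also within cells with at most 2 Ccl5 UMIs the responding share was lower with knockdown, at 4.46, 4.57, 1.64 and 2.09%.

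The rule used Ifit1 and Ifit3 only, so the level of the other type I interferon-stimulated genes shows how strongly its cells carried the program. Summed over 64 such genes without Ifit1 and Ifit3, members held 19383, 17985, 15877 and 17797 CPM, against 3514, 3495, 3536 and 3554 CPM in reference cells, and no library's reference value came near a member value. The low-Ccl5 responding cells lay between them, at 9719.9, 9425, 13154 and 9958 CPM. Knockdown members were slightly lower than control members (16837 ± 1357 against 18684 ± 988 CPM, SD, n = 2 each, exact permutation p = 0.33), and the reference cells of the groups were nearly equal.

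The level grew with the number of Ifit UMIs. The 57 members with only 1 UMI of each gene, just inside the rule, had 11713, 8368, 8355 and 7811 CPM. Just outside it, Ccl5-high cells with Ifit3 alone (272 cells) had 5475, 5584, 6286 and 6471 CPM, and those with Ifit1 alone (354 cells) had 8012, 5189.7, 6405 and 5987 CPM, both above the reference cells in every library. At the other end, the 69 members with 10 or more Ifit3 UMIs reached 28640.0 to 33059 CPM. Around the Ccl5 threshold the cells were too few and scattered to show whether there was a step. The 15 members with 20 to 24 Ccl5 UMIs had 12602 to 26340.1 CPM, and 11 cells with 15 to 19 Ccl5 UMIs that met the Ifit rule had 7549 to 55943 CPM. Cell by cell, the sum per 10000 UMIs ran from a 10th percentile of 54.3 to 67.1 through medians of 197, 167, 132 and 166 to a 90th percentile of 332 to 446, against medians of 29.9 to 32.2 in reference cells. In these levels members thus formed a range, with no clear edge at the Ifit threshold.

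**Figure D2:**
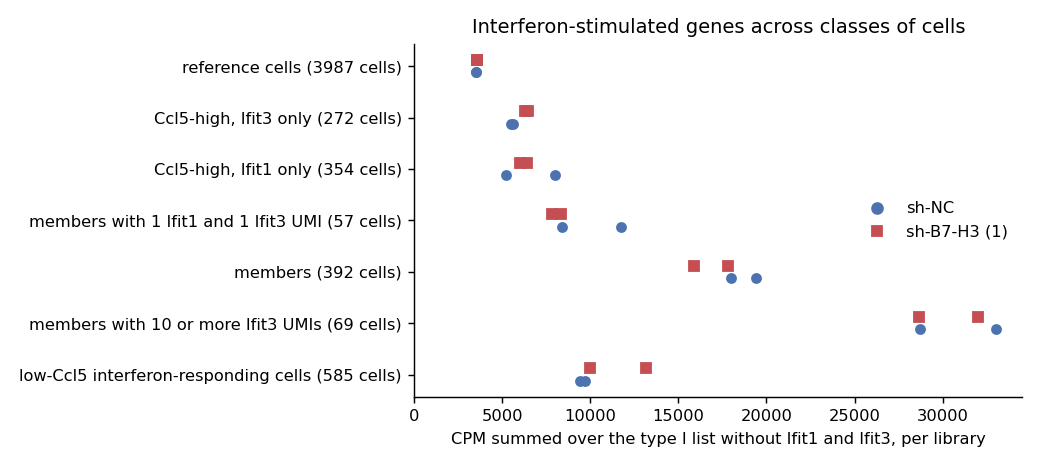
CPM summed over the type I list without Ifit1 and Ifit3 (x axis, linear from 0) in classes of cells set by Ccl5, Ifit1 and Ifit3 UMIs (y axis, with cell numbers over all libraries); points are libraries, circles sh-NC and squares sh-B7-H3 (1). Reference cells lie at 3495 to 3554, members at 15877 to 19383 and members with 10 or more Ifit3 UMIs at 28640.0 to 33059.

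Beside Ifit1 and Ifit3, which chose them, members differed from reference cells in many interferon-stimulated genes. Of 9486 genes with enough counts (at least 10 UMIs in 1 of the states in every library), 127 (1.34%) were at least 2-fold higher in members in each of the 4 libraries and 24 (0.253%) at least 2-fold lower. The contrast shares its RNA with the rule, so these values are a description with no test. The 127 genes include Ifit1 and Ifit3. Of the other 125, 54 belonged to the type I list, 70 to that or the interferon-gamma-type list, 55 to neither, and 0 to the lists of myeloid and dendritic cell markers. The interferon lists are not full sets of interferon-induced genes. Without the upper limit of 3000 genes, which admitted deeper droplets (819 members), 47 genes were higher and 73 lower. The lower count also grew to 46, 56, 62 and 63 when control 1, control 2, knockdown 1 or knockdown 2 was left out, because agreement was then asked of fewer libraries.

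The marker genes of this cell type were all higher in members. Rsad2, whose product viperin makes an antiviral nucleotide, was at 331, 310.1, 240.2 and 255 CPM in members and at 1.02, 1.20, 2.62 and 2.32 CPM in reference cells, a mean log2 difference of 6.71 ± 0.64 (SD over 4 libraries, 1 CPM added). Cxcl10, a chemokine that draws Cxcr3-bearing T cells, was at 467, 466, 272 and 407 CPM against 2.31, 5.78, 3.09 and 5.85 CPM (6.30 ± 0.57 on the log2 scale). Member and reference values of these genes were far apart in every library. Within the members both control libraries lay above both knockdown libraries, but for Cxcl10 not without the highest cell of each library (295, 329, 232 and 343 CPM).

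Isg20, an RNA exonuclease, was at 813, 758, 624 and 745 CPM in members and 125, 122, 154 and 157 CPM in reference cells (log2 difference 2.39 ± 0.32). In low-Ccl5 responding cells it was at 125 to 221 CPM, close to the reference cells and not to the members. Gzmb, the serine protease of cytotoxic granules, was at 769.9, 802, 399 and 724 CPM against 242, 241, 112 and 158 CPM (1.85 ± 0.23 on the log2 scale), lowest in knockdown 1 in both states. In the low-Ccl5 cells Gzmb was at 15.9, 16.2, 358 and 0 CPM, where knockdown 1 had only 23 such cells. Ifit3 itself was at 922, 873, 561 and 695 CPM and Ifit1 at 768, 737, 734 and 849 CPM in members, which the rule required. Ccl5 was at 13971, 13397, 15865 and 14431 CPM in members and 16421, 17627, 18792 and 18563.5 CPM in reference cells, -0.31 on the log2 scale.

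Isg15, a ubiquitin-like modifier, was at 1570.2, 1430.0, 1027 and 1369 CPM in members and 37.1, 35.9, 30.5 and 31.2 CPM in reference cells (log2 difference 5.27 ± 0.17). Usp18, which removes Isg15 from proteins and dampens type I receptor signaling, was at 168, 194, 138 and 204 CPM against 6.66, 2.65, 5.00 and 4.82 CPM (4.97 ± 0.59). Irf7, the transcription factor that amplifies interferon production, was at 301, 265, 204 and 227 CPM against 26.9, 24.8, 22.4 and 24.7 CPM (3.27 ± 0.15). Genes past the fold were chosen to differ in all 4 libraries, so only the size of these differences is informative.

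Bst2 (tetherin), which holds budding virus at the cell surface, was at 1058, 952, 732 and 877 CPM against 138, 127, 108 and 106 CPM (log2 difference 2.90 ± 0.12). Cmpk2, a mitochondrial nucleotide kinase next to Rsad2 in the genome, differed by 5.17 ± 0.46, the oligoadenylate synthetase Oas3 by 3.81 ± 0.20, and the RNA helicases Ifih1 (MDA5) and Dhx58 (LGP2) by 3.27 ± 0.55 and 2.78 ± 0.52. Among paralogs with similar sequence, for which the assignment of reads is uncertain, Ifit3b differed by 6.04 ± 0.51, Ifit2 by 3.30 ± 0.37, Ifit1bl1 by 3.30 ± 0.27, and the DNA-sensor family genes Ifi204 and Ifi214 by 4.60 ± 0.39 and 2.97 ± 0.26. The GTPases Iigp1 and Gbp6 differed by 3.78 ± 0.48 and 3.06 ± 0.28, Rtp4 by 3.22 ± 0.12 and Phf11a by 2.96 ± 0.32. Slfn5, a Schlafen family gene, differed by 3.22 ± 0.61 but was higher still in low-Ccl5 responding cells, at 157 to 251 CPM against 43.8 to 101 CPM in members.

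Lower in members, 2 genes passed the level of 50 CPM asked of named genes. Rgs16, which ends signaling by G protein-coupled receptors and marks activated T cells, was at 17.6, 33.6, 50.4 and 48.4 CPM against 111, 106.5, 145 and 121 CPM (-1.76 ± 0.57 on the log2 scale). Cd4, the coreceptor of helper T cells, was at 48.0, 51.4, 96.9 and 88.5 CPM against 165, 157, 288 and 266 CPM (-1.62 ± 0.09). The Cd4 difference ran beside the lineage shares given with the coreceptors.

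**Figure D3:**
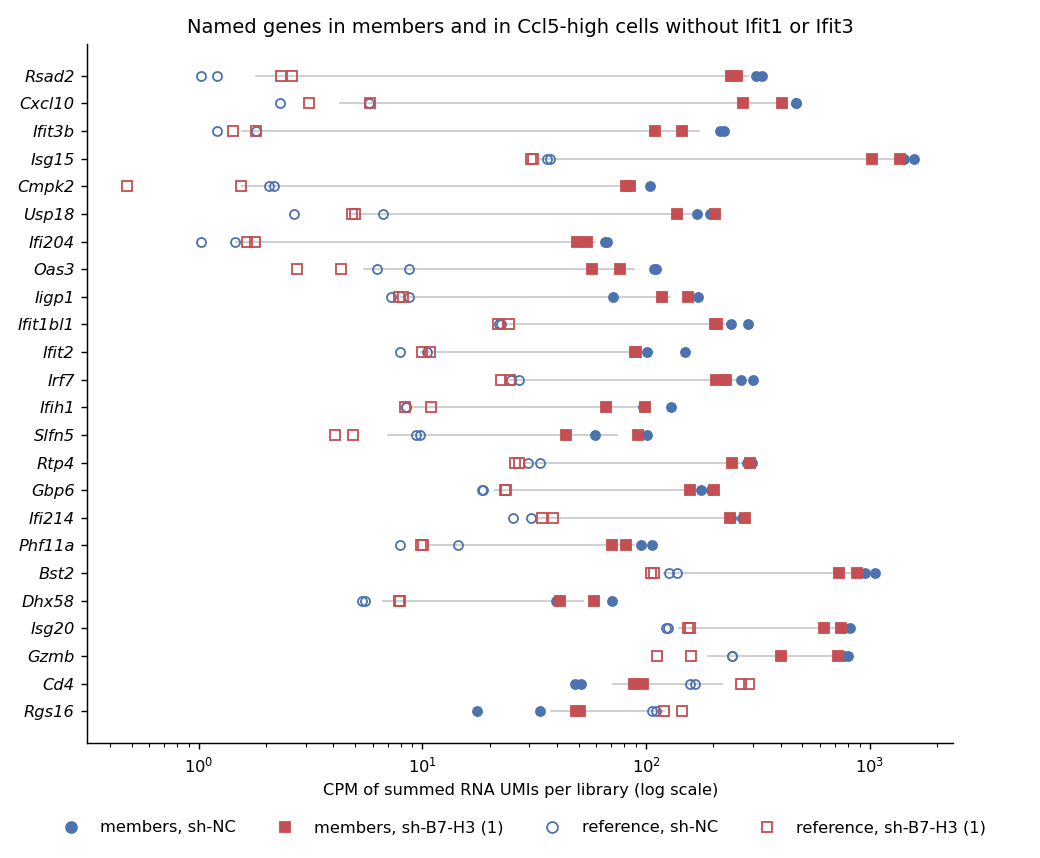
CPM of summed RNA UMIs (x axis, log scale) of the named genes (y axis) in members (filled) and reference cells (open), with circles for sh-NC and squares for sh-B7-H3 (1), 1 point per library; gray lines join the state means. Filled points lie to the right of open ones for every gene but Cd4 and Rgs16, from Rsad2 (240.2 to 331 against 1.02 to 2.62 CPM) to Gzmb (399 to 802 against 112 to 242 CPM).

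Many of these genes shared letters in their promoters. The core letters of the interferon-stimulated response element, GAAANNGAAA on either strand, were searched in RefSeq promoter windows (GRCm38.p6, from 250 bases before to 50 after each start). They were present for 27 of 55 type I genes with a window (49.1%), 11 of 16 interferon-gamma-type genes (68.8%) and 47 of 107 genes past the fold (43.9%), Ifit1 and Ifit3 included, against 1 of 16 genes lower in members (6.25%) and 1079 of 27025 genes in all (3.99%; 3.44% of all windows). Cytolytic effector genes, of which only Gzmb was past the fold, also held the letters in 4 of 14 with a window (28.6%). The letters were thus not confined to the interferon lists. A match is a description of letters and not a measured binding site.

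The promoters of the genes that chose or best marked the members are shown as the stretch around their matches, 5' to 3' on the gene's strand, with the matched letters in capitals. By the GRCm38 gene annotation Ifit1 spans chr19:34640871-34650009 and Ifit3 chr19:34583531-34588731, both on the plus strand, and Ifit3b carries the same stretch as Ifit3. Rsad2 lies at chr12:26442746-26456452, Cxcl10 at chr5:92346638-92348889 and Isg15 at chr4:156199424-156200818, all on the minus strand.

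Ifit1 promoter (chr19:34640765-34640833): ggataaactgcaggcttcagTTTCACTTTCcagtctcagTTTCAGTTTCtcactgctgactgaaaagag

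Ifit3 promoter (chr19:34583353-34583436): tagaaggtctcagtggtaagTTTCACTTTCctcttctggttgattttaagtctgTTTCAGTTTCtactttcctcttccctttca

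Rsad2 promoter (chr12:26456543-26456592): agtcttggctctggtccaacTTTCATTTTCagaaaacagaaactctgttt

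Cxcl10 promoter (chr5:92349073-92349122): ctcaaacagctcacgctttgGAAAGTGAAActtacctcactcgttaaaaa

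Isg15 promoter (chr4:156200855-156200916): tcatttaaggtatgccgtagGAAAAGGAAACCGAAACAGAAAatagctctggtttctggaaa

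Ifit1 and Ifit3 each held 2 matches, Rsad2 held 1 match 120 bases before the start, Cxcl10 held 1 match 213 bases before it, and Isg15 held 3 that overlap. The windows of Isg20 and Gzmb held no match, nor did those of Cmpk2, Oasl1 and Ifit2, which says only that these letters are not in those windows.

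By role, the type I list was higher almost throughout. Of its 57 described genes that did not choose the cells, 54 were past the fold, with a median log2 difference of 2.49 against -0.15 over all described genes, and 0 were past it in the lower direction. Ifi27l2a, of the interferon-inducible 27 family, was at 3307, 2869.8, 3545 and 3494 CPM in members and 655, 678, 785 and 782 CPM in reference cells (log2 difference 2.19 ± 0.11). Ifi203, a nuclear protein of the same gene cluster as Ifi204, differed by 1.67 ± 0.06. Sp100, a nuclear body protein, was among the 3 that fell short, at 0.95.

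The interferon-gamma-type genes followed, with 16 of 21 past the fold and a median of 2.07. The GTPases Ifi47, Gbp7, Igtp and Gbp4 differed by 1.56 ± 0.11, 1.69 ± 0.24, 2.55 ± 0.11 and 1.61 ± 0.08. Socs1, the feedback inhibitor of Jak kinases, was at 270.5, 227, 189.7 and 185 CPM against 97.3, 87.9, 61.4 and 59.9 CPM (1.51 ± 0.12). Irf1, the first transcription factor that interferon gamma induces, was not past the fold, at 160.1, 197.5, 159 and 153 CPM against 127, 148, 111 and 111 CPM (0.43 ± 0.08).

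The antigen-presentation genes differed far less. Of 21 genes for MHC class I and peptide loading 0 were past the fold, although 19 were above 0 (median 0.46). B2m, the light chain of all MHC class I molecules, was at 3888, 4128, 4542 and 4359.9 CPM against 3235, 3383, 3891.5 and 3833 CPM (0.24 ± 0.04). The heavy chains H2-K1, H2-D1 and H2-Q7 differed by 0.19 ± 0.05, 0.18 ± 0.07 and 0.24 ± 0.05, the immunoproteasome subunit Psmb8 by 0.56 ± 0.08, and Tapbp, which loads peptide, by 0.93 ± 0.11. Reads of the related heavy chain genes may be shared among them.

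Of the receptors and signaling genes, 5 of 16 were past the fold, among them Stat2, Irf9, Usp18 and Socs1, which are interferon-stimulated themselves. Stat2 was at 81.6, 81.0, 71.6 and 83.4 CPM against 14.1, 10.1, 13.9 and 13.7 CPM (2.54 ± 0.25), and Irf9 differed by 1.48 ± 0.08. The receptor chains and kinases were near their reference levels: Ifnar1 differed by 0.31 ± 0.10, Ifnar2 by 0.42 ± 0.35, Ifngr1 by -0.03 ± 0.10 and Jak1 by -0.04 ± 0.06. Of the interferon genes only Ifng, the gene of interferon gamma, was detected, at 110.4, 184, 200.4 and 259 CPM in members and 186.5, 185.5, 287 and 223 CPM in reference cells (-0.27 ± 0.45, with no common direction in the libraries). Ifnb1, Ifna1, Ifna2, Ifna4, Ifna5, Ifnl2 and Ifnl3 had 0 UMIs in the members of every library.

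**Figure D4:**
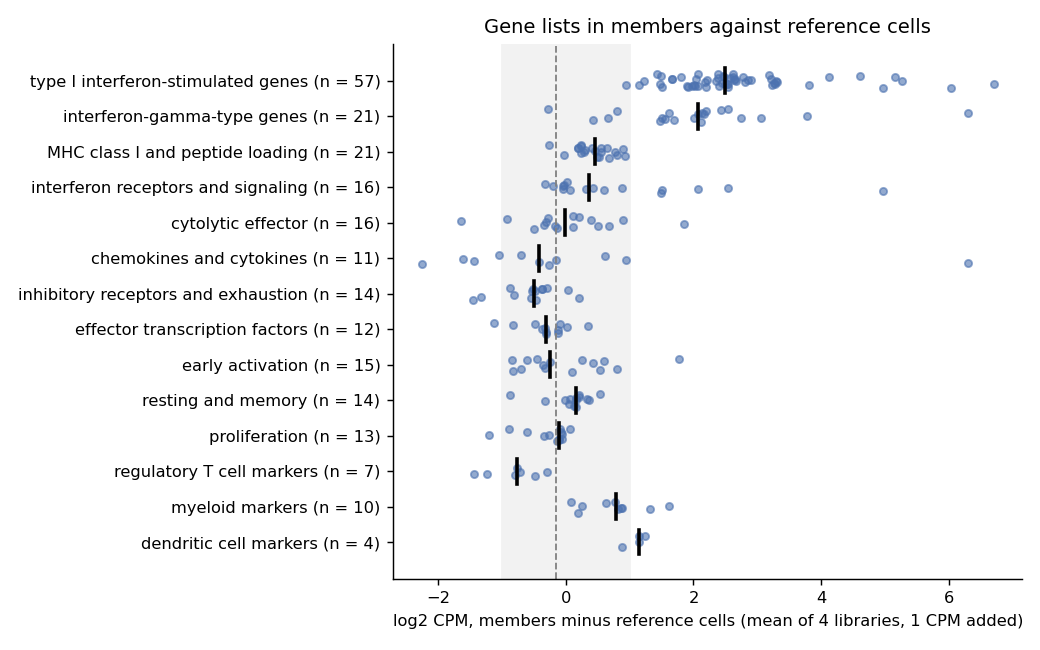
Mean log2 difference of CPM between members and reference cells over 4 libraries (x axis, 1 CPM added) for each described gene of the lists (y axis, n genes without those that chose the cells); black ticks are list medians, the dashed line the median of all described genes and the gray band differences under 2-fold. The type I and interferon-gamma-type lists lie to the right (medians 2.49 and 2.07), MHC class I within the band (0.46) and inhibitory receptors at -0.50.

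Of 16 cytolytic genes Gzmb alone was past the fold (list median -0.01). Nkg7, a granule membrane protein, was at 2827, 3235, 3922 and 3588 CPM against 3788, 3931, 4819 and 4579 CPM (-0.34 ± 0.06). Prf1, the pore-forming perforin, differed by -0.28 ± 0.26, the granzyme gene Gzmk by 0.21 ± 0.17, the proteoglycan Srgn by -0.17 ± 0.05 and the cathepsin Ctsw by 0.50 ± 0.21. Gzma was at 178, 96.8, 23.9 and 187 CPM in members, and its log2 difference of 0.90 ± 1.48 was smaller than its spread over libraries. Per cell, the cytolytic list took a median of 69.4 to 71.6 per 10000 UMIs of members in every library.

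Of 14 genes for inhibitory receptors and exhaustion 0 were past the fold and 2 were above 0 (median -0.50). Lag3, an inhibitory receptor for MHC class II, differed by -0.49 ± 0.23, the receptor gene Pdcd1 (PD-1) by -0.46 ± 0.09 and Tox, a transcription factor of exhausted T cells, by -0.37 ± 0.11. Also 0 of 12 effector transcription factors (median -0.31; Id2 -0.12 ± 0.06, Runx3 -0.31 ± 0.07), 0 of 13 proliferation genes (-0.11; H2afz -0.62 ± 0.14, Hmgb2 -0.06 ± 0.23), 0 of 14 resting and memory genes (0.15; Ltb 0.15 ± 0.11, Bcl2 -0.01 ± 0.22), 0 of 14 genes for chemokine receptors and homing (0.16; Cxcr6 -0.41 ± 0.12, Itga4 -0.56 ± 0.16) and 0 of 7 regulatory T cell markers (-0.77; Ikzf2 -0.49 ± 0.43, Tnfrsf18 -0.80 ± 0.28) were past it. With few genes past the fold over all (1.34% higher and 0.253% lower), a count of 0 in lists of this size is not a result about the list, and the list medians stand beside -0.15 over all described genes.

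Early activation genes had 1 of 15 past the fold. Cd69, a receptor that retains lymphocytes in tissue and that type I interferon induces, was at 325, 391, 235 and 221 CPM in members and 113, 116, 55.3 and 62.8 CPM in reference cells (1.78 ± 0.23). Jund and Junb, subunits of the AP-1 transcription factor, differed by -0.24 ± 0.18 and 0.25 ± 0.29. Of the chemokines and cytokines, Cxcl10 was past the fold upward and Il21 downward. Ccl4, a chemokine of activated T cells, was at 1159, 659.7, 1526 and 1663 CPM against 2529, 2369, 2783 and 2149.5 CPM (-1.05 ± 0.61), lower in members in every library but not 2-fold lower in each.

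At an equal depth of 2000 UMIs per cell, which all members reached, the shares of cells with a UMI showed how many members carried each gene. Isg15 was seen in 71.8, 72.6, 65.4 and 78.5% of members, against 5.38 to 7.05% of reference cells. In low-Ccl5 responding cells it was seen in 57.8, 57.9, 72.7 and 58.3%, above the members in knockdown 1, where such cells were few. Rsad2 was seen in 34.1, 26.0, 31.7 and 29.2% of members against 0.176 to 0.483% of reference cells, and Cxcl10 in 20.0, 16.4, 18.3 and 26.2% against 0.41 to 1.41%. The low-Ccl5 shares were 5.56 to 10.2% for Rsad2 and 3.11 to 18.2% for Cxcl10. The shares of control and knockdown members overlapped for these genes (exact permutation p = 0.667 to 1.00).

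Gzmb was seen in 48.2, 50.7, 29.8 and 42.3% of members and 24.3, 25.4, 13.4 and 14.5% of reference cells, with both knockdown libraries below both control libraries in either state (difference in members -13.4 percentage points, exact permutation p = 0.33). Isg20 was seen in 68.2, 58.9, 62.5 and 72.3% of members, against 21.6 to 26.1% of reference cells and 16.7 to 27.3% of low-Ccl5 responding cells. Lag3 was seen in 36.5, 37.0, 34.6 and 37.7% of members, below the reference cells (38.1, 38.1, 47.1 and 45.6%) in each library. Gzmk was seen in 62.4, 45.2, 46.2 and 45.4% against 48.7, 50.8, 42.3 and 43.7%, with no common direction. Mki67, a marker of cycling cells, was seen in 1.37 to 3.85% and Foxp3, the regulatory T cell factor, in 0 to 2.31% of members.

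Cxcl10 came from few cells. Without thinning, 23.3 to 31.8% of members had a Cxcl10 UMI, and the 10% of members with the most held 78.7 to 93.6% of its UMIs. For Rsad2 the top 10% held 48.4 to 65.0%, for Gzmb 53.0 to 59.0%, for Isg15 31.5 to 35.5% and for Isg20 29.4 to 33.9%. A Cxcl10 level of the members thus describes a minority of them, whereas an Isg15 level (83.7 to 92.9% of cells with a UMI) describes most.

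Members leaned more to the CD8 lineage than reference cells did. Cells with Cd8a or Cd8b1 UMIs and no Cd4 UMI were 75.3, 84.9, 76.9 and 72.3% of members and 59.7, 64.9, 55.9 and 56.4% of reference cells, a difference of 15.6, 20.1, 21.1 and 15.9 percentage points. Cells with Cd4 and no Cd8 UMI were 9.41, 9.59, 10.6 and 7.69% of members against 20.3, 21.3, 26.0 and 24.6% of reference cells. Both states were chosen on RNA, so these differences are a description. Between groups the CD8 share of members did not separate (80.1% ± 6.81 against 74.6% ± 3.26, SD, n = 2 each, exact permutation p = 0.667). The surface tags, which the rule did not use, placed 64.7, 69.9, 67.3 and 64.6% of members over the CD8b and under the CD4 threshold (Otsu's threshold of log10 tag UMIs in each library), against 53.3, 51.8, 48.8 and 48.3% of reference cells. Within CD8-lineage cells alone (300 members), 128 genes were past the fold upward, 119 of them shared with the 127, and 11 downward, of which 1 was shared with the 24.

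The surface proteins of members and reference cells were tested within libraries, since the tags are a separate measurement from the RNA that chose the cells. Of 197 tags, 2 (1.02%) were called at an adjusted p under 0.05 and a log2 difference of at least 0.5, both lower in members, and 40 had an unadjusted p under 0.05. The CD4 tag was at 778, 724, 1199.5 and 989.9 CPM of tag UMIs in members and 1244, 1229.7, 2596 and 2352 CPM in reference cells (log2 difference -0.95 ± 0.11 SE, edgeR quasi-likelihood adjusted p = 0.0103). The tag of CD200R, an inhibitory receptor for CD200, was at 4314.5, 4685, 7313 and 5964 CPM against 7364, 7566, 9317 and 8937 CPM (-0.59 ± 0.07, edgeR adjusted p = 0.00865). Both tags were lower in members in 4 of 4 libraries. Within CD8-lineage cells alone edgeR called 0 tags (22 at an unadjusted p under 0.05), with the CD4 tag at 0.10, and without knockdown 1 there was 1 call. Without the upper gene limit 25 tags were called, 21 of them higher in members, and neither of these was among them.

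The tag of Ly-6A/E, a glycolipid-anchored protein that interferon induces in T cells, was higher by 0.41 ± 0.02 (edgeR adjusted p = 0.00173) and that of CD8b by 0.44 ± 0.03 (edgeR adjusted p = 0.00245), both under the limit of 0.5. BST2 differed by 0.19 ± 0.05 (edgeR adjusted p = 0.108), where Bst2 RNA differed by 2.90, and PD-L1 by 0.22 ± 0.08 (edgeR adjusted p = 0.205). The PD-L1 tag, at 479, 352, 577 and 465 CPM in members, lay below the highest isotype control (396, 386, 739 and 749 CPM) in 3 of 4 libraries. CD69 differed by 0.06 ± 0.04 (edgeR adjusted p = 0.477), where Cd69 RNA differed by 1.78, and PD-1 by -0.08 ± 0.02 (edgeR adjusted p = 0.142). CD38 and CD39, ectoenzymes of activated and exhausted T cells, were lower by small amounts (-0.24 ± 0.04 and -0.31 ± 0.03, edgeR adjusted p = 0.0167 and 0.00711). The TIGIT tag could not be read by library, since 1 member of control 2 held 5362 of its 5415 UMIs there.

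Markers of other cell types were present in some members. The 15 myeloid markers summed to 781, 1428, 567 and 1714 CPM in members and 389.9, 405, 581 and 593 CPM in reference cells, higher in members in 3 of 4 libraries, and 0 of them were at 0 in all members. The 11 dendritic cell markers summed to 298, 968, 178 and 1069 CPM against 104.5, 184, 349.9 and 349.9 CPM, with Flt3, Clec9a, Siglech, Ccl22 and Fscn1 at 0, and the B cell marker Ms4a1 and the natural killer cell markers Ncr1, Klra4 and Klra8 were at 0. Myeloid UMIs sat in few cells: 5, 2, 7 and 12 members (5.88, 2.74, 6.73 and 9.23%) had at least 2 UMIs of Lyz2, C1qa, C1qb, C1qc and Csf1r, and they held 92.5 to 98.0% of those UMIs. In the other members Cxcl10 was at 409.7, 421, 252 and 438 CPM. Without those cells, a setting added after the data were seen, 125 genes were past the fold upward, 123 of them among the 127. With mixed-lineage and other-lineage cells removed (110 members), 95 were past it upward, 91 of them shared, and 36 downward, 5 of them shared. All 10 described myeloid and all 4 described dendritic cell markers were higher in members on average (median log2 differences 0.79 and 1.15).

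Between tumors, the genes called in members included the chemokine gene Ccl3 (higher with knockdown) and Ly6c2 and Jun (lower). Of 5904 genes tested in the members, 20 (0.339%) were called at an adjusted p under 0.05 and at least 2-fold change, 14 higher and 6 lower with knockdown, all with both libraries of a group on the same side, and 586 had an unadjusted p under 0.05. DESeq2 called 10, all among the 20. Leaving out a library leaves 1 group with a single library, and the spread then comes only from the other group. Overlap of such calls with the 20 is therefore not read as stability. Without the upper gene limit 157 genes were called, 9 of the 20 among them.

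Of the type I list, 0 of 58 genes tested were called by edgeR and 0 by DESeq2, with 14 at an unadjusted p under 0.05 (median log2 change -0.13, 11 above 0, against 0.00 over all genes), and of the interferon-gamma-type list 0 of 21 by either tool, with 4 at an unadjusted p under 0.05 (median -0.13, 7 above 0). Over all 5904 genes, edgeR called 0.339% and 586 had an unadjusted p under 0.05. At that share, a count of 0 in lists of this size is not a result about the lists. Rsad2 changed by -0.32 ± 0.12 (edgeR adjusted p = 0.369), Isg15 by -0.26 ± 0.11 (edgeR adjusted p = 0.404), Cxcl10 by -0.39 ± 0.15 (edgeR adjusted p = 0.336) and Isg20 by -0.14 ± 0.10 (edgeR adjusted p = 0.718). Gzmb changed by -0.41 ± 0.17 (edgeR adjusted p = 0.404). None passed the threshold. The sign of Cxcl10 turned in 2 alternatives (0.39 without mixed-lineage and other-lineage cells, 0.46 in cells of 5000 to 10000 UMIs) and that of Isg15 in 1 (0.066 without simulated-doublet calls), so no direction is read from these genes, and a miss of the threshold does not show that the groups were equal.

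Ccl3, a chemokine of activated T cells, was at 318.5, 196, 771 and 1101 CPM in members (log2 change 1.91 ± 0.17 SE, edgeR adjusted p = 5.7e-07). Its UMIs were concentrated, with 701 of the 1070 UMIs of knockdown 2 in 1 cell. Without the highest cell of each library it was at 165, 125, 507 and 384 CPM, and without cells of over 500 Ccl3 UMIs (1 member) the log2 change was 1.18 (edgeR adjusted p = 0.0021). Knockdown libraries stayed above control libraries, while the call was lost among CD8-lineage members (0.98) and among members with 5000 to 10000 UMIs (0.58). Ccl4 changed by 0.85 ± 0.15 (edgeR adjusted p = 0.00337), under 2-fold, and Ifng by 0.73 ± 0.19 (edgeR adjusted p = 0.0734).

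S100a4, a calcium-binding protein of motile effector cells, was at 679, 683, 1515 and 1308 CPM (1.10 ± 0.09, edgeR adjusted p = 9.8e-08). Samsn1, an adaptor of lymphocyte receptor signaling, was at 72.0, 88.9, 187 and 181 CPM (1.26 ± 0.17, edgeR adjusted p = 0.000226). Batf, an AP-1 factor of effector differentiation, was at 52.8, 47.4, 95.5 and 104 CPM (1.04 ± 0.22, edgeR adjusted p = 0.0236). All 3 were higher in both knockdown libraries, and they were also higher there in reference cells (987, 1098, 1585 and 1598, 163, 169, 248 and 232 and 112, 119.7, 141 and 132 CPM in the same order of genes and libraries).

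Lars2 and AY036118 were higher with knockdown at 123, 115, 499 and 434 and 573, 669.6, 2452 and 2182 CPM (2.02 ± 0.14 and 1.96 ± 0.09, edgeR adjusted p = 3.8e-09 and 3.9e-12), and so they were in reference cells, at 103, 122, 477 and 472 and 595, 601, 2312 and 2254 CPM. Lars2 is a mitochondrial tRNA synthetase gene and AY036118 a noncoding gene inside a ribosomal RNA repeat, and reads from ribosomal RNA fragments may be assigned to either. The histone gene Hist1h4d, 1 of several near-identical copies, was at 57.6, 35.6, 111 and 86.5 CPM (1.10 ± 0.25, edgeR adjusted p = 0.0388).

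Among the genes that fell, Ly6c2, a surface protein of memory-like CD8 cells whose reads may be shared with Ly6c1, was at 423, 630.1, 241.5 and 244 CPM (-1.05 ± 0.14, edgeR adjusted p = 0.000226). Jun, the AP-1 subunit, was at 302.5, 176, 98.2 and 111 CPM (-1.15 ± 0.20, edgeR adjusted p = 0.00326), with control 1 the highest library. Tsc22d3, which glucocorticoids induce, was at 118, 69.1, 47.8 and 39.1 CPM (-1.09 ± 0.26, edgeR adjusted p = 0.0484). With Fos, below the level for named genes, 3 of 12 early activation genes were called lower, against 6 of 5904 genes in all (0.102%), and 0 of the 12 were above 0 (median -0.65, against 0.00 over all genes). Other lists were also 1-sided. Above 0 were 1 of 12 resting and memory genes (median -0.45), 12 of 14 inhibitory receptor and exhaustion genes (0.27) and 10 of 11 effector transcription factors (0.32). A lean to 1 side was therefore not particular to early activation genes. Fos rested on few UMIs, with 27, 11, 5 and 6 in members and 12 of the 27 in 1 cell. The shares of members with a Jun UMI overlapped between the groups, at 36.5, 32.9, 34.6 and 33.8%. Reference cells were also lower with knockdown, at 78.4, 67.7, 27.8 and 30.8 CPM for Tsc22d3 and 114, 142, 89.7 and 90.6 CPM for Jun. Nr4a2, an immediate-early transcription factor of the exhaustion list, went the other way and was called higher, at 27.2, 19.8, 51.7 and 63.8 CPM (1.34 ± 0.31, edgeR adjusted p = 0.0392), and was named, like Fos, after its values were seen. Its UMIs were few and concentrated, with 7 of 17, 6 of 10, 5 of 39 and 21 of 62 in 1 cell of each library. Cd69 changed by -0.59 ± 0.13 (edgeR adjusted p = 0.0266), under 2-fold. Over 20 alternatives the calls of Tsc22d3, Batf, Hist1h4d and Ly6c2 were lost in 12, 10, 10 and 7, those of Jun and S100a4 in 4 each and that of Samsn1 in 2, all with their direction kept. The call of Nr4a2 was lost in 10 of its 19 alternatives and that of Fos in 5 of its 16, also with the direction kept. Such counts, here and below, include fits without 1 library and a run without the fold limit, where no call could be lost. They are not read as stability.

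**Figure D5:**
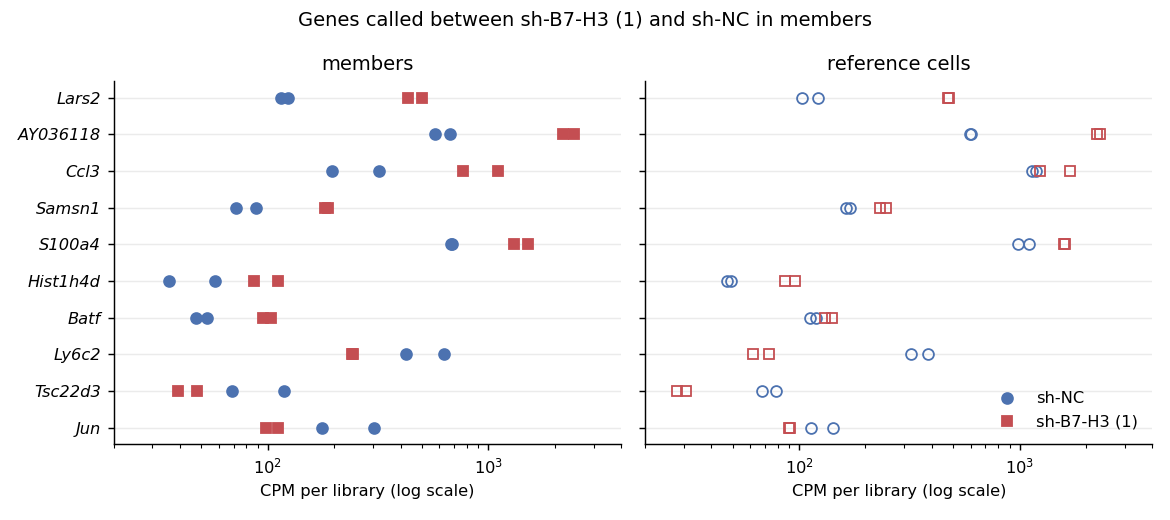
CPM per library (x axes, log scale) of the genes called between the groups (y axis) in members (left, filled) and in reference cells (right, open); circles are sh-NC and squares sh-B7-H3 (1). In members the groups are separated for all 10 genes, as was asked of named genes, with Ccl3 at 196 and 318.5 against 771 and 1101 CPM, while in reference cells Ccl3 lies closer, at 1189.9, 1138, 1691 and 1241 CPM.

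Whether the knockdown difference was the same in members and reference cells was tested with an interaction term over both kinds of cells. Of 9488 genes, 5 (0.0527%) were called, all with the higher change in members, and 532 had an unadjusted p under 0.05. Ccl3 was higher in reference cells (1189.9, 1138, 1691 and 1241 CPM) than in members, and its change was larger in members by 1.58 ± 0.22 (edgeR adjusted p = 0.00152), or by 0.84, under 2-fold, without the cells of over 500 UMIs. The share of cells with a Ccl3 UMI was higher with knockdown in both states. It was 17.6, 24.7, 36.5 and 33.1% of members and 34.8, 35.1, 54.4 and 52.7% of reference cells. Ly6c2 fell less in members than in reference cells (383, 321, 61.8 and 73.3 CPM), by 1.32 ± 0.18 (edgeR adjusted p = 0.00152). Klf2, a transcription factor of quiescent and recirculating T cells, was at 149, 120.5, 101 and 79.3 CPM in members and 190.1, 158, 57.7 and 56.4 CPM in reference cells (difference of changes 1.05 ± 0.19, edgeR adjusted p = 0.019). For Ly6c2 and Klf2 the groups were closer to each other in members than in reference cells. Tnfrsf4 and Klra7, below the level for named genes and mentioned to account for all 5 calls, were at 22.4, 7.90, 71.6 and 38.1 and 0, 0, 0 and 15.4 CPM in members, with 14 of the 15 Klra7 UMIs in 1 cell. Of the Tnfrsf4 UMIs of knockdown 1 and knockdown 2, 30 of 54 and 21 of 37 lay in 1 cell each, and 8.24, 5.48, 9.62 and 5.38% of members had a Tnfrsf4 UMI. Left out in turn, the libraries gave 3, 1, 13 and 23 calls. With mixed-lineage and other cells removed (110 members) edgeR called 0 genes (302 at an unadjusted p under 0.05) and the values of Ly6c2 and Klf2 turned to -0.48 and -2.30. Apart from these reversals, the calls of Klf2, Ccl3, Klra7, Tnfrsf4 and Ly6c2 were lost in 7, 6, 6, 4 and 3 alternatives, with the direction kept.

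At the surface of members, 5 of 197 tags (2.54%) were called between the groups, 3 lower and 2 higher with knockdown, and 95 had an unadjusted p under 0.05. Ly-6C, the protein of Ly6c2 and its paralog, was at 14050.0, 17804, 6587.5 and 8375 CPM of tag UMIs (-1.53 ± 0.18 on the log2 scale, edgeR adjusted p = 0.00548), lower with knockdown as its RNA was. CD45, the phosphatase on all leukocytes, was at 13761, 14033, 8837 and 8776 CPM (-1.10 ± 0.05, edgeR adjusted p = 0.00102), and CD36, a fatty acid receptor, at 1649.7, 1918, 1070.3 and 1330.5 CPM (-1.01 ± 0.16, edgeR adjusted p = 0.0101). These levels were also lower with knockdown in reference cells, at 18298, 17425, 5169 and 6491 CPM for Ly-6C.

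The tags that were higher with knockdown lay below the highest isotype control. The chemokine receptor CCR8 was at 183, 209.9, 558 and 557 CPM (1.07 ± 0.10, edgeR adjusted p = 0.00342) and the B cell receptor CD22 at 189.5, 129, 565 and 616 CPM (1.42 ± 0.18, edgeR adjusted p = 0.00602), whereas the highest of 9 isotype controls, which bind no mouse antigen, was at 396, 386, 739 and 749 CPM. Isotype controls took 0.217, 0.228, 0.345 and 0.330% of the members' tag UMIs, more with knockdown, and their part in these calls was not tested. Scaled to total tag UMIs instead of TMM, which moved the median tag change from 0.03 to 0.48, 12 tags were called, 11 of them higher. CD45 (-0.66) and CD36 (-0.57) then fell under the 2-fold limit, and Ly-6C was at -1.09. Over 19 alternatives the calls of CD36, CCR8, CD45, Ly-6C and CD22 were lost in 10, 5, 3, 2 and 2. In all, 1 tag was called when knockdown 1 was left out.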

How the data were processed

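RNA and 197 antibody tags were measured in 4 libraries of sorted CD3+ tumor cells. As deposited by the authors, the matrices hold unnormalized UMI counts per gene and tag, made with Cell Ranger (6.1.1 per the file headers) on mm10, before any of the authors' Seurat filters. Barcodes with 200 to 3000 genes and at most 5% mitochondrial UMIs were kept. UMI counts were summed per library and cell state. Members, gene lists and tests were chosen with earlier results of these data known.

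Library shares were compared with exact permutation tests, and intervals and floors cover counting error only. Counts were tested with the quasi-likelihood test of edgeR 4.0.16 (TMM scaling, filterByExpr at a minimum count of 10, which kept all 197 tags, Benjamini-Hochberg adjusted p under 0.05). The log2 limit was 1 for genes and for tags between groups, and 0.5 for tags between states, where the library was a block. SE is the log2 change over the root of F. The code was checked on simulated data. Cells were thinned to 2000 UMIs for shares of cells with a UMI. Simulated doublets (30 neighbors, 30 components, 2000 variable genes, scikit-learn 1.9.0) were scored but kept. Other tools were Python 3.11.15, numpy 2.4.6, scipy 1.17.1, pandas 2.3.3, R 4.3.3 and DESeq2 1.42.0.

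Named genes were the 5 cell type markers and the 20 highest and 10 lowest past the fold with 50 CPM or more, those called between groups (up to 12 each way) or as interactions (up to 5 each way) with a mean of 50 CPM or more and separated groups, called tags, and 2 to 6 genes of each list in order of level. Mitochondrial, ribosomal and receptor segment genes were not named. Alternatives were other cell limits, lineage and doublet filters, DESeq2, other scaling and filters, a replicate block and leaving out each library. The numbers of replicates come from the labels, and same-numbered libraries deviated together by a correlation of 0.046 over 5904 genes, so they were not treated as pairs. Some genes are not reported here.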

Additional observations from a re-analysis of the deposited data

Results flagged for a closer look

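The knockdown difference in members differed from that in reference cells for 5 genes by the interaction test. It was higher in members by 2.68 on the log2 scale for Tnfrsf4 (OX40, a costimulatory receptor), by 1.58 for Ccl3, by 1.32 for Ly6c2 and by 1.05 for Klf2. Klra7, a natural killer receptor gene with close copies, was the remaining one, and 14 of its UMIs in members lay in 1 cell of knockdown 2, so no change is given. Tnfrsf4 is concentrated too: 30 of 54 UMIs of knockdown 1 and 21 of 37 of knockdown 2 lay in 1 cell each, and without the highest cell of each library it was at 13.0, 6.03, 32.1 and 16.6 CPM in members. Cells of over 500 Ccl3 UMIs bear on the Ccl3 value, which was 0.84 without them.

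The shares of members and of low-Ccl5 responding cells differed between the groups in opposite directions. The log2 ratio of both shares was higher with knockdown by 3.75, at the smallest exact permutation p that 2 libraries against 2 allow. Ccl5 separates the 2 kinds of cells, and Ccl5-high cells were 4.15 times as large a share with knockdown. Within Ccl5-high cells and within cells with at most 2 Ccl5 UMIs, the responding share was lower with knockdown (0.619 and 0.413 times the control share). The log2 ratio thus carries the shift in Ccl5 and does not measure the interferon response alone. Free Ccl5 RNA was highest in the knockdown libraries, and its part in this ratio was not tested.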

How the results depend on the processing

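The shares of members, Ccl5-high cells and low-Ccl5 responding cells kept their direction in each setting run. For the 20 genes called between groups, the count was 157 with no upper gene limit (9 shared), 56 with no fold limit, 52 with no filter on low counts, 39 with a replicate block, 32 with at most 1 myeloid UMI, 13 in CD8-lineage cells, 10 with DESeq2, 10 at 5000 to 10000 UMIs and 6 with mixed-lineage and other cells removed, and 22 to 50 without 1 library. Lars2 and AY036118 kept their call throughout. The block, which left the tags between groups at 5, rests on numbers that do not pair the libraries. The 5 interactions became 15 at 2 or more Ifit UMIs, 13 with no upper limit, 11 without doublet calls, 10 with at most 1 myeloid UMI, 0 with mixed-lineage and other cells removed, and 1 to 23 without 1 library. Tags called between states (2) were 25 with no upper limit, 16 with no fold limit, 5 at 5000 to 10000 UMIs, 4 without doublet calls, 1 at 2 or more Ifit UMIs, 0 in CD8-lineage cells and 1 to 3 without 1 library. Tags called between groups (5) were 58 with no fold limit, 12 without TMM, 3 without doublet calls and 1 to 5 without 1 library. Genes past the fold were 47 higher and 73 lower with no upper limit, and the lower ones 53 at 2 or more Ifit UMIs, 37 with no minimum, 11 in CD8-lineage cells, 3 with 10 CPM added and 46 to 63 without 1 library. Of the 11 genes compared as shares of cells, groups did not overlap for 3 at equal depth and 5 unthinned; since the smallest exact permutation p with 2 libraries a group is 0.33, nothing is read from these counts.

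Some directions reversed: the knockdown change of Cxcl10 to 0.39 with mixed-lineage and other cells removed and 0.46 at 5000 to 10000 UMIs, that of Isg15 to 0.066 without doublet calls, the interactions of Ly6c2 and Klf2 to -0.48 and -2.30 with mixed-lineage and other cells removed, and the CD4 tag to 0.10 in CD8-lineage cells. Differences in shares of cells with a UMI (percentage points) turned to -4.68 for Rsad2, -5.70 for Isg20 and -1.61 for Ifng at 1000 UMIs, and to -6.45 for Rsad2, -0.98 for Isg20 and 5.71 for Lag3 unthinned. The causes were not tested. With 2 libraries a group and 73 to 130 members in each, a gene under about 50 CPM rests on few UMIs.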

Other observations

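Of the 127 genes higher in members, 55 were in neither interferon list, and these are described after their values were seen. The lists are not full sets of interferon-induced genes, since Ly6a, whose protein interferon induces in T cells, was in neither. A gene in neither list need not lie outside the interferon response. Ms4a4b, a tetraspanning membrane protein of T cells, was at 3176, 3087, 2739 and 2876 CPM in members and 1187, 1247, 948 and 979.7 CPM in reference cells (log2 difference 1.45 ± 0.11). Ly6a, the gene of the Ly-6A/E antigen, was at 795.5, 867, 466 and 547 CPM against 230.3, 274, 111 and 114 CPM (1.94 ± 0.27). Samhd1, which depletes nucleotides in virus-infected cells, was at 715, 575, 496 and 567 CPM against 113.5, 133, 118 and 116 CPM (2.27 ± 0.27), and Rnf213, a very large ubiquitin ligase, at 253, 229, 196 and 214 CPM against 47.9, 40.7, 46.0 and 47.3 CPM (2.27 ± 0.18). The choice of the 127 genes required this direction in all 4 libraries.

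Jaml, an adhesion molecule of T cells, differed by 2.07 ± 0.35, the pyrophosphatase Ppa1 by 1.91 ± 0.29 and Slfn2, needed for T cell quiescence, by 1.16 ± 0.13. Under 50 CPM, Gsta4, a glutathione transferase, had 0, 2, 34 and 43 UMIs in members and was called higher with knockdown, with 14 of the 34 and 15 of the 43 in 1 cell each. Reference cells were also higher with knockdown, at 42.5, 37.1, 104 and 81.8 CPM.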
